A study of Caenorhabditis elegans with 2 samples.

Results

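The col- genes of Caenorhabditis elegans encode collagens, nearly all of the cuticle, and chromatin immunoprecipitation with sequencing (ChIP-seq) was used to ask where the transcription factor EOR-1 sits in the larva. They were taken as all protein-coding genes whose name is col- followed by a number, which gave 156 of 19973 protein-coding nuclear genes. The material was 1 group of 2 biological replicates, whole L3 larvae of both sexes from strain OP81, which carries the transgene wgIs81 with eGFP-tagged eor-1 together with the unc-119(ed3) mutation on chromosome III. The tagged protein comes from an inserted transgene and the animals were whole, so binding in the epidermis is mixed with that in every other tissue, and binding in few cells and weak binding in many cannot be told apart. There was no second condition, so the collagen genes were set beside all protein-coding genes under the same rule, and the replicates beside each other.

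The cuticle is the outer coat of the worm, made mostly of small collagens that the epidermis (the hypodermis) secretes and cross-links, and it is rebuilt at each moult. Cuticle collagen genes are known to be transcribed in waves that recur with the moulting cycle. EOR-1 is a BTB-domain zinc finger protein known for its place downstream of Ras and Wnt signals in the worm. One member of the name family, col-99, is known as a transmembrane collagen and not as a cuticle component, so the name rule is slightly wider than the cuticle.

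Region lists of 2 kinds were used. The optimal list holds the peaks that passed the authors' test of reproducibility, 256 of them nuclear. The candidate lists hold peaks and background together, with 29970 nuclear regions in the pooled list, 29973 in that of replicate 1 and 29971 in that of replicate 2. A candidate is therefore no evidence of binding on its own, and the lowest nuclear signal was 12.9 in the pooled list, 8.06 in replicate 1 and 6.98 in replicate 2. Some regions of a replicate list with signals above those values overlap no pooled region, and why they are missing there was not tested. The signal is the authors' value, with no stated scale, so each is given with its rank among the nuclear regions of its list. The locus of a gene ran from 5000 bp upstream of its start to its end, and a region counted by its summit.

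EOR-1 had 1 reproducible peak at a col- gene, upstream of col-185 on the X chromosome. That is 0.641% of 156 genes (exact 95% interval 0.0162 to 3.52%), against 2.14% of all protein-coding genes. The peak chrX:13514474-13514645 (build ce11) is 172 bp long, and its summit lay 3469 bp upstream of the start of col-185 (WBGene00000758, chrX:13510035-13511097, minus strand). Its signal was 156.9 in the pooled list, at rank 24. It was 95.2 in replicate 1, at rank 17, and 59.7 in replicate 2, at rank 41. Both replicates placed it among their 50 strongest nuclear regions, with summits 3475 bp and 3482 bp upstream.

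No other protein-coding start was closer to this peak than that of col-185. The next gene upstream is cdk-4, a cyclin-dependent kinase gene that drives entry into the cell cycle. It runs in the same direction, with its 3′ end 1290 bp beyond the summit and its start 4345 bp away. When genes of every biotype were considered, a tRNA gene (WBGene00014413) was the closest, at 2525 bp. The start of H06A10.3, a noncoding RNA gene beside it, was also closer than that of col-185. The peak thus lay in the intergenic stretch between col-185 and the end of cdk-4, outside the promoter window of any protein-coding gene, here taken as 1000 bp upstream to 200 bp downstream of the start.

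The col-185 locus held further candidates near the start of the gene. A pooled region with its summit 975 bp upstream had a signal of 49.9 at rank 318, and 1 overlapping it, 741 bp upstream, had 44.4 at rank 507. In replicate 1 the region at 975 bp had 31.6 at rank 243, and another, 495 bp upstream, had 16.8 at rank 5064. Replicate 2 had 2 regions there, 975 bp upstream with 15.5 at rank 4946 and 725 bp upstream with 16.3 at rank 4067. A further replicate 2 region, 1462 bp upstream with 12.2 at rank 10752, overlapped no region of replicate 1 or of the pooled list. The summit at 975 bp was 31 bp from the start of the tRNA gene. A region 4722 bp upstream, near the end of cdk-4, had 37.9 pooled, with 27.1 in replicate 1 and 11.5 in replicate 2. A last pooled region, 2342 bp upstream, had 15.6 at rank 23009, with 10.3 in replicate 2 and none in replicate 1.

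**Figure D1:**
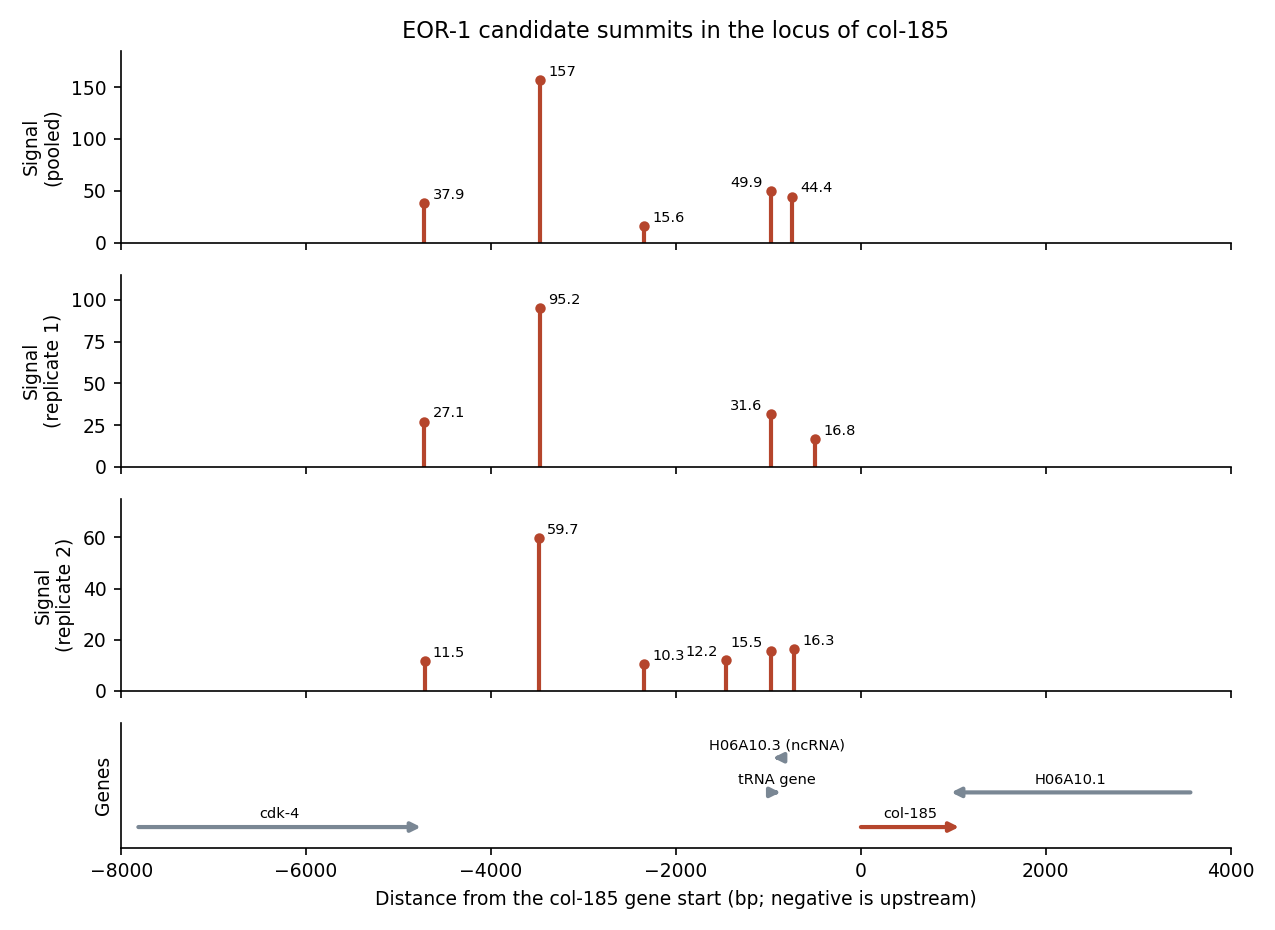
Candidate summits in the locus of col-185, as signal (y axis, the authors' scale, which differs between lists) against distance from the gene start in bp (x axis), for the pooled list and each replicate, with the neighbouring genes as arrows that point in the direction of transcription. The distal summit is the highest in each of the 3 lists, with 157 pooled, 95.2 in replicate 1 and 59.7 in replicate 2.

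The sequences of the regions with the highest signal at this locus are shown because they hold the only reproducible peak of the family. They are given on the plus strand, 5′ to 3′, from the RefSeq WBcel235 genome, the assembly of ce11. The distal peak is printed whole (chrX:13514474-13514645), and the region at 975 bp as 50 bp to each side of its summit (chrX:13512022-13512122). Capitals mark the word GAGAG, read on either strand, and the EOR-1 motif, searched as GAGACGCAG or AGACGCAGA on both strands, was found in neither.
col-185 distal peak: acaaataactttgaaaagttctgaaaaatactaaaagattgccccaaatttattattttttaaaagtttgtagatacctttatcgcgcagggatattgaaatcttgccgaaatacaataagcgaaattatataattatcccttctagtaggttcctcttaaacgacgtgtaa
col-185 at 975 bp: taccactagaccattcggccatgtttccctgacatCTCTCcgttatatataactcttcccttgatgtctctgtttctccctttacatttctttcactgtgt
The distal peak has a GC content of 29.7% and the region at 975 bp has 41.6%. The distal peak lacked the word GAGAG as well.

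A second strong region in the loci of collagen genes was found in replicate 2 alone. The region chrIII:10989499-10989798 had a signal of 62.4 in replicate 2, at rank 37, above that of the distal col-185 peak in the same list. Its summit lay 1776 bp upstream of col-94 and 4040 bp upstream of its neighbour col-93, both on the minus strand and both lying within dhc-4, a dynein heavy chain gene on the plus strand. The summit too lay within dhc-4, and it was 30 bp from the start of R07E5.16, a small nuclear RNA gene. Neither replicate 1 nor the pooled list had any region overlapping it, and the nearest summits were 4093 bp away in replicate 1 (signal 14.6) and 4089 bp away in the pooled list (21.7). Of the first 1000 nuclear regions of replicate 2, 94 overlapped no pooled region, and this was 1 of them. Why the other lists lack it was not tested, and it was named after its values were seen. The 101 bp around the summit (chrIII:10989599-10989699, plus strand, ce11) are shown because the region had the highest replicate 2 signal in a col- locus.
col-94 region: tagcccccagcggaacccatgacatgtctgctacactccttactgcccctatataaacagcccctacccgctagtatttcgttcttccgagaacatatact
Neither the EOR-1 motif nor GAGAG was found in it.

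Beyond col-185, candidate regions at col- genes were fewer than at protein-coding genes as a whole. In the pooled list 71 of 156 had a region in the locus (45.5%, 37.5 to 53.7%), against 57.2% of all genes. In replicate 1, 83 had one (53.2%, 45.1 to 61.2%), against 63.8%, and in replicate 2, 82 had one (52.6%, 44.4 to 60.6%), against 63.7%. In both replicate lists at once, 69 had one (44.2%), against 56.5%. A pooled region overlapped by regions of both replicates was found at 48 (30.8%, 23.6 to 38.6%), against 44.5%. The shares were thus lower in each of the 3 lists, with intervals that cover counting error only and treat neighbouring genes as separate, and no test was run on the family.

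The col- genes are short. The median col- gene is 1220 bp long, against 2027 bp for all protein-coding genes, so its locus is shorter. In the 5000 bp upstream alone, which are equal for every gene, 70 col- genes had a pooled region (44.9%, 36.9 to 53.0%). The share of all genes, 52.6%, lay within that interval, so this comparison does not set the family apart. Of the 180 pairs of a col- gene and a pooled region, 173 were upstream (96.1%), against 64.2% of such pairs over all genes, and 7 were within the gene.

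Next to the gene start the shares of col- genes were lower in each of the 3 lists. In the promoter window 25 col- genes had a pooled region (16%, 10.6 to 22.7%), against 30.0% of all genes. Replicate 1 had regions there at 38 (24.4%, 17.9 to 31.9%) and replicate 2 at 32 (20.5%, 14.5 to 27.7%), against 31.9% of all genes in each replicate list. In the last 500 bp before the start, 9.62% of col- genes had a pooled summit, against 17.7% of all genes. The bins further upstream varied. Between 3000 and 3500 bp upstream the pooled shares were 13.5% and 13.4%, and between 2500 and 3000 bp they were 7.05% and 13.4%. For all genes the bin next to the start held the highest share of the upstream bins in each of the 3 lists. For col- genes it lay within the range of the bins further upstream, at 9.62% within 7.05 to 14.1% in the pooled list, 12.2% within 7.05 to 12.8% in replicate 1 and 10.3% within 9.62 to 16% in replicate 2.

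**Figure D2:**
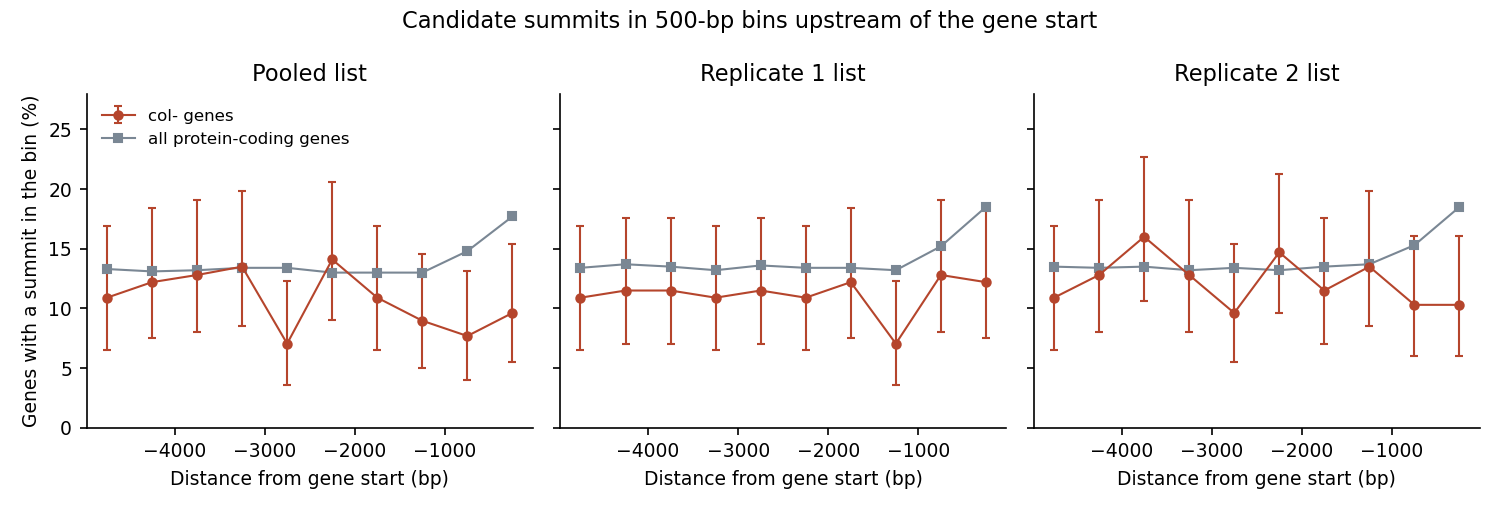
Percent of genes with a candidate summit (y axis) in 500-bp bins of distance upstream of the gene start (x axis), for col- genes with exact 95% intervals and for all protein-coding genes, in the pooled list and each replicate. In the bin next to the start the pooled values are 9.62% of col- genes and 17.7% of all genes.

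Many regions counted at a col- gene were closer to a different gene. The col- start was the closest protein-coding start for 71 of the 180 pairs (39.4%), against 54.1% of the pairs over all genes. At 109 pairs another start was closer, at a median of 946 bp from the summit, while the col- start was at a median of 3418 bp. In 6 of these the closer start was that of another col- gene. As a result 40 col- genes (25.6%, 19 to 33.2%) had a pooled region for which their own start was the closest, against 42.8% of all genes. These shares count the gene body too, which is shorter in col- genes. In the 5000 bp upstream alone 37 had one (23.7%), against 33.8%, a smaller gap. The gap to the next protein-coding gene upstream was of similar size in both, with a median of 855 bp for col- genes and 937 bp for all genes.

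**Figure D3:**
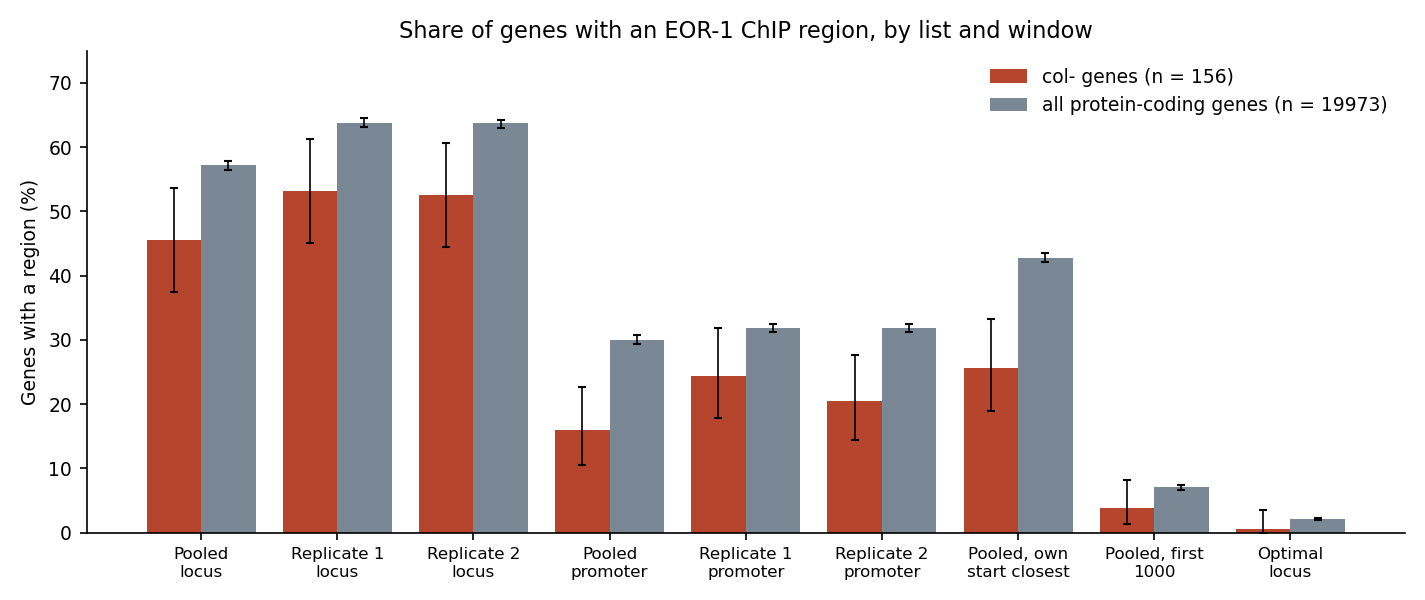
Percent of genes (y axis) with a region in each list and window (x axis), for the 156 col- genes on the left of each pair and all 19973 protein-coding genes on the right, with exact 95% intervals as error bars. Each of the 9 shares is lower in col- genes, from 45.5% against 57.2% for the pooled locus to 0.641% against 2.14% for the optimal locus.

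The first 1000 regions gave a share whose interval covers that of all genes. Among the first 1000 nuclear regions of the pooled list, 8 lay in the loci of 6 col- genes (3.85%, 1.42 to 8.18%), against 7.08% of all genes. By rank, col- loci held 1 of the first 256 nuclear regions (0.391%, 0.00989 to 2.16%) and 7 of the 744 at ranks 257 to 1000 (0.941%, 0.379 to 1.93%). They held 0.750% of those at ranks 1001 to 3000 and between 0.514% and 0.642% of the weaker bands, against 0.584% of the whole list, and the interval of each band covers that value. The 6 genes were col-185, col-71, col-158, col-154, col-153 and col-37. Of the 10 col- genes with the highest pooled signal in the locus, 3 had the closest start themselves, col-185, col-118 and col-64. The same held for the strongest region of 23 of all 71 col- genes with a region, so the strongest 10 did not stand apart in this. Over the 71 genes with a region, the highest pooled signal had a median of 24.8 (quartiles 19.5 and 29.5), against 26.1 (20.8 and 32.4) over all genes with one. The medians were 14.3 against 15.6 in replicate 1 and 12.4 against 14.2 in replicate 2.

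**Figure D4:**
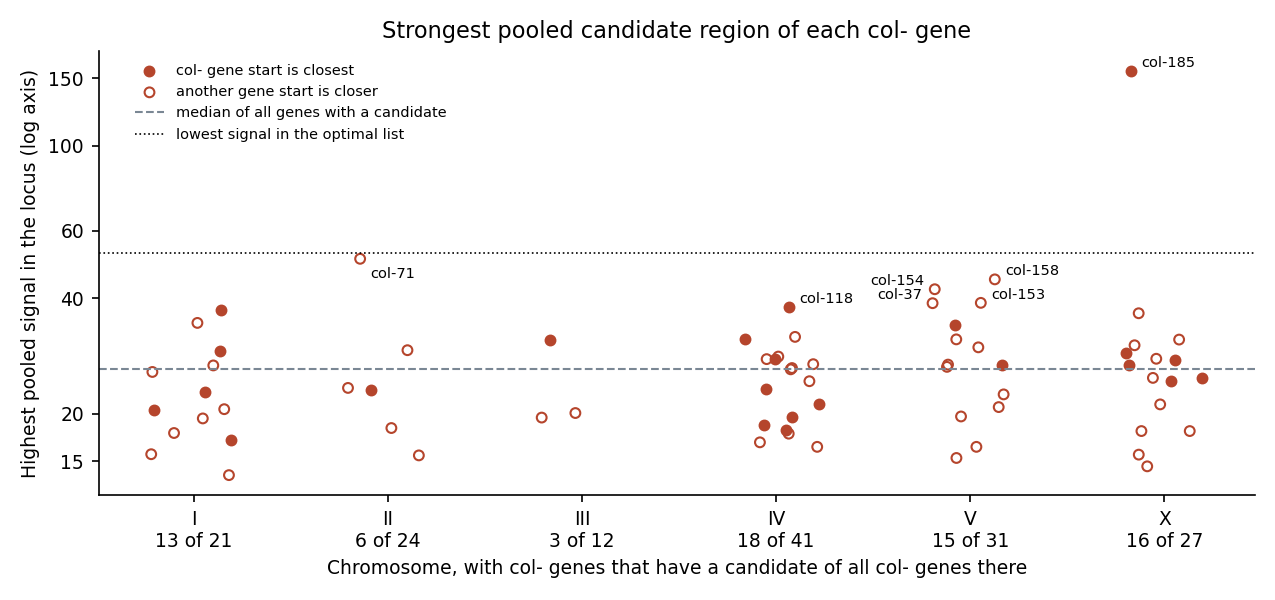
Highest pooled signal in the locus of each col- gene with a candidate (y axis, log scale, the authors' units) by chromosome (x axis), with filled points where the col- start is the closest protein-coding start and open points where another gene's is. The point of col-185 is the only one above the lowest signal of the optimal list, 52.7, and col-71 lies just below it at 50.7.

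The next strongest region, at col-71, lay just outside the optimal list. It is at chrII:3502674-3502969, with its summit 252 bp upstream of col-71 but 146 bp from the start of Y49F6B.2. Its pooled signal was 50.7 at rank 297, with 25.2 at rank 698 in replicate 1 and 16.9 at rank 3432 in replicate 2. The promoter window of col-71 also held the EOR-1 motif, with its middle 40 bp downstream of the start and 292 bp from the summit. The motif site with 25 bp to each side (chrII:3502501-3502560, plus strand, ce11) is shown because it lies in the col- promoter with the highest pooled signal; capitals mark the motif.
col-71 motif site: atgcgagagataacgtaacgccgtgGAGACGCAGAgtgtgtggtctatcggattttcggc

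The other 4 genes with a region in the first 1000 are on chromosome V. The region 2411 bp upstream of col-158 had a pooled signal of 44.8, with 16.2 in replicate 1 and 24 in replicate 2, and its summit was 104 bp from the start of mpst-1. An optimal peak (signal 54.9, rank 229) lay 5209 bp upstream of col-158, just beyond the 5000 bp used here. The region 3750 bp upstream of col-154 had 42.2, with 26.1 and 16.5 in replicates 1 and 2, and was closer to F55C10.5. The region 3399 bp upstream of col-153 had 38.9, with 18.1 and 20.6 in the same order, and was closer to F17C11.2. The region 1991 bp upstream of col-37 had 38.8, with 23.8 and 11.7, and lay 470 bp from ZK863.1. None of these 4 was nearest to a collagen gene.

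Where the col- start was the closest, col-118 and col-64 followed col-185. At col-118 (chromosome IV) a region 699 bp upstream had a pooled signal of 38.0 at rank 1057. It was uneven between the replicates, with 28.1 at rank 421 in replicate 1 and 9.14 at rank 20214 in replicate 2. At col-64 a region 2468 bp upstream had 37.3, with 21.0 in replicate 1 and 15.5 in replicate 2. The locus of col-64 held 5 pooled regions, and the 1 in its promoter window, 420 bp upstream, had 28.4, with 21.0 in replicate 1 and none in replicate 2.

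The region of col-13 stood higher in replicate 2 than in replicate 1. It lay 1053 bp upstream with a pooled signal of 34.0 at rank 1871, and had 14.8 at rank 8126 in replicate 1 and 19.3 at rank 1867 in replicate 2. The other genes named by the rule with their own start closest were col-128 (31.3, 4625 bp upstream), col-98 (31.0, 2552 bp), col-55 (29.1, 1976 bp), col-171 (28.8, 1286 bp), col-137 (27.7, 2557 bp), col-187 (27.7, 4313 bp), col-172 (27.1, 667 bp), col-160 (26.8, 2714 bp), col-174 (26.7, 2773 bp), col-37 (25.7, 222 bp) and col-183 (24.8, 494 bp). The region of col-160 also counted for its neighbour col-159, whose start is 2726 bp from the summit. At col-128 replicate 1 had no overlapping region. These signals ran from 24.8 to 31.3, beside the median of 26.1 over all genes with a candidate. Completing the 10 highest in the locus, the region 3234 bp upstream of col-173 (36.6) was closer to F41C6.6 and that 1326 bp upstream of col-62 (34.5) to C15A11.7.

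In the promoter window the strongest regions after those of col-71, col-185 and col-118 had pooled signals of 29.8 or less. The region 388 bp upstream of col-139 had a pooled signal of 29.8, with 13.9 in replicate 1 and 14.5 in replicate 2, and was closer to F41F3.1. The region 667 bp upstream of col-172 had 27.1, with 11.7 and 14.2 in replicates 1 and 2. The regions at col-37 (25.7, 222 bp upstream) and col-183 (24.8, 494 bp) were found in replicate 1 alone, and that at col-176 (24.3, 832 bp) in replicate 2 alone. That at col-98 (24, 407 bp) was found in both. Among the 10 strongest, none but those of col-71 and col-185 was among the first 1000 regions.

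Several collagen genes of known use had no pooled region in their locus. These were col-19, known as an adult-stage collagen, col-2, known from the dauer larva, col-10 and col-120. They are among the 85 of 156 col- genes without a pooled region, so the absence does not set them apart within the family. A pooled region was found at 45.5% of col- genes, against 57.2% of all genes. At col-19 both replicates had weak regions, the strongest 13.6 at rank 10481 in replicate 1 and 9.18 at rank 20044 in replicate 2 (2507 bp and 738 bp upstream). The replicate 2 region overlapped a weaker one of replicate 1 (12.5, 1023 bp upstream), and a further pair overlapped about the far end of the locus, with 9.03 in replicate 1 and 8.31 in replicate 2. The nearest optimal peak was 11348 bp upstream of col-19 (signal 83.4). At col-10 replicate 2 alone had a region, 1309 bp upstream with 18.9 at rank 2021, and col-2 and col-120 had none in any list. At col-12 the strongest pooled region had 16.4, 3264 bp upstream and closer to tag-314. The transmembrane collagen gene col-99 had 18.7 at rank 16410, 3968 bp upstream. In all, 59 col- genes had no region in any of the 3 candidate lists (37.8%, against 28.7% of all genes), and 61 had 1 or more in each of them (39.1%, against 52.6%).

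By chromosome, the share of col- genes with a pooled region ran from 25% to 61.9%. On the X 16 of 27 had one (59.3%, 38.8 to 77.6%), against 68.8% of all genes there. On chromosome IV, which holds more of the family than any other, 18 of 41 had one (43.9%, 28.5 to 60.3%), against 61.8%. The shares on the other chromosomes were 15 of 31 on V (48.4%, against 56.8%), 6 of 24 on II (25%, against 43.5%), 3 of 12 on III (25%, against 59.5%) and 13 of 21 on I (61.9%, against 55.7%). Chromosome I was the exception for the whole locus, while in the promoter window its col- genes had a region at 14.3%, against 30.7% of all its genes. Weighted by the chromosomes of the family, 58.2% of all genes had a pooled region in the locus and 30.6% in the promoter window.

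The replicate lists shared part of the regions in these loci. The 180 pairs rest on 175 distinct regions, 5 of which lay in the loci of more than 1 col- gene. Of the 175, 120 overlapped a region of replicate 1 (68.6%, 61.1 to 75.4%), against 73.7% of all pooled regions. For replicate 2 the count was 119 (68.0%, 60.5 to 74.8%), against 70.3%. Both replicates had a region at 77 (44.0%, 36.5 to 51.7%), against 49.3%, and neither at 13 (7.43%), against 5.31%. The pooled list was made from the same alignments, so this overlap is no separate check. Taken from the replicate lists alone, 90 of the 178 regions of replicate 1 in col- loci overlapped a region of replicate 2 (50.6%, 43.0 to 58.1%), against 52.6% of all its regions. In the other direction it was 92 of 199 regions of replicate 2 (46.2%, 39.2 to 53.4%), against 53.0%.

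Across the 77 regions found in both lists, signal in replicate 1 and in replicate 2 gave a Spearman rho of 0.04, and Pearson's r of the log2 signals was 0.27. Without the regions of col-185, 73 remained, with a rho of -0.05 and an r of -0.06, so the positive r rested on col-185. Over all 14789 pooled regions with a region in both replicates the rho was 0.18. Some of these regions share an overlapping replicate region, and all come from the same 2 libraries, so the values are descriptions with no test. Of the strong regions, 9 of the 10 col- regions in the first 1000 of replicate 1 overlapped a region of replicate 2, against 80.0% of all its first 1000. In replicate 2, 3 of 5 overlapped a region of replicate 1, against 79.5%.

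**Figure D5:**
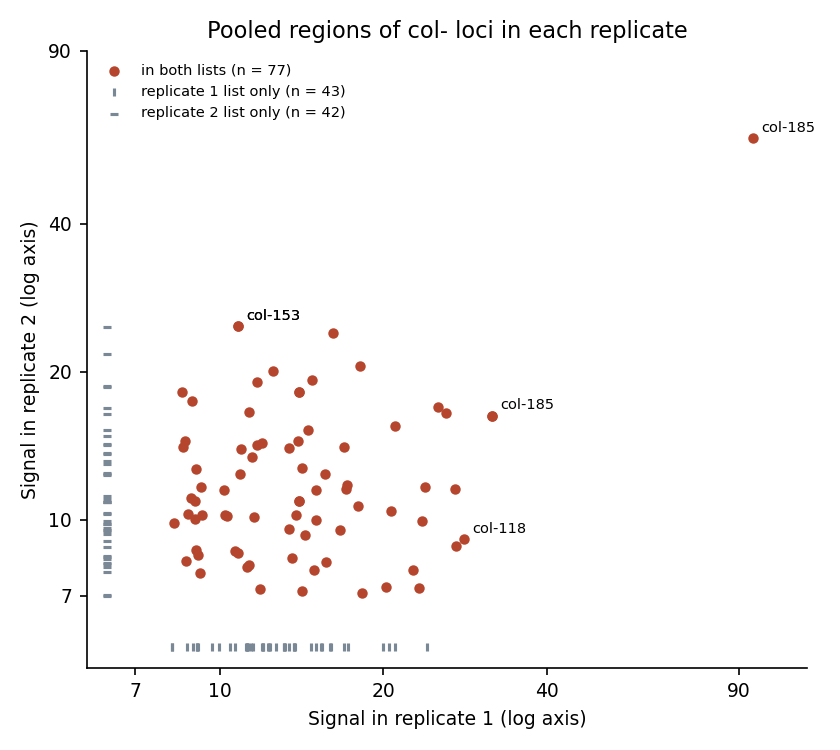
Signal in replicate 1 (x axis) and replicate 2 (y axis), both log scale in the authors' units, of the pooled regions in col- loci, with 77 points in both lists and ticks along the axes for 43 regions in replicate 1 alone and 42 in replicate 2 alone. The distal col-185 peak, at 95.2 and 59.7, stands apart from a cloud with no visible slope.

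The sequences under the summits in col- loci lacked the EOR-1 motif. It was searched as GAGACGCAG or AGACGCAGA, which overlap each other, on both strands, within 50 bp of each summit. It was at 0 of 175 regions (0 to 2.09%; 3 counts would be 1.71%), against 0.380% of all pooled regions and 11.7% of the optimal nuclear peaks. The word GAGAG was at 10 of 175 (5.71%, 2.77 to 10.3%), against 7.03% of all pooled regions and 32.8% of the optimal peaks. The median GC content of these windows was 26.7%, against 25.7% over all pooled regions and 40.6% over the optimal peaks. In these 3 respects the col- regions were close to the candidate list as a whole.

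Away from the summits, col- promoters held the motif about as often as others did. It was found in 11 of 156 promoter windows (7.05%, 3.57 to 12.3%), against 8.02% of all protein-coding genes, and GAGAG in 84.6%, against 80.2%. Of the 11, those of col-71 and col-98 also had a pooled region in the window. At col-98 the motif lay 128 bp upstream of the start and 279 bp from the summit. The sites at col-103 (144 bp upstream) and col-144 (93 bp upstream) hold both forms, and their nearest pooled summits were 1155 bp and 3519 bp away. At col-103 both replicates had a region near the motif that overlapped no pooled region. It had 8.18 in replicate 1, with its summit 388 bp upstream, and an overlapping region had 10.65 in replicate 2. The sites of col-98, col-103 and col-144 are shown with 25 bp to each side, on the plus strand of ce11 (chrIII:13018851-13018909, chrIV:763793-763852 and chrV:9160706-9160765). These col- promoters hold the motif without an optimal peak in the locus. Capitals mark the motif.
col-98 motif site: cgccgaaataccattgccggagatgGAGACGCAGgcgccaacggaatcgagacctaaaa
col-103 motif site: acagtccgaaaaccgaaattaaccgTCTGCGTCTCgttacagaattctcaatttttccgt
col-144 motif site: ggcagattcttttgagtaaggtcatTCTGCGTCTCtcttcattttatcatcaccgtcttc

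Cuticle collagens with other names were set beside the col- genes from a list of 20, of which 19 were matched (ram-4 was not). Of these, 9 had a pooled region in the locus (47.4%, 24.4 to 71.1%) and 7 in the promoter window (36.8%), against 57.2% and 30.0% of all genes. Of the 19, 1 had an optimal peak, against 2.14% of all genes. This peak lay 4427 bp upstream of dpy-10, a collagen gene of the annular furrows. Its pooled signal was 55.2 at rank 225, with 36.4 in replicate 1 and 18.1 in replicate 2, and its summit was 209 bp from the start of T14B4.5. The region 473 bp upstream of dpy-4 had 38.5, with 11.1 in replicate 1 and 27.3 in replicate 2, and the third, 4109 bp upstream of dpy-5, had 27.6. Of the 6 furrow collagens in the list, 5 had a pooled region (83.3%, 35.9 to 99.6%), an interval that covers the 57.2% of all genes.

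Genes of collagen processing and cross-linking had pooled regions at 8 of 11 loci (72.7%, 39.0 to 94%), against 57.2% of all genes, and no optimal peak, against 2.14%. The strongest were upstream of pdi-2 (41.1), a protein disulphide isomerase gene, and of dpy-31 (41.1), a procollagen C-peptidase gene, both closer to another start. The region 948 bp upstream of phy-2, a prolyl 4-hydroxylase subunit gene, had 38.0, with 16.8 in replicate 1 and 18.5 in replicate 2. Of 35 cuticlin genes, which encode other cuticle proteins, 19 had a pooled region (54.3%, 36.6 to 71.2%), against 57.2% of all genes, led by cutl-25 (40.1), cutl-29 (38.8) and cutl-24 (38.2). Of 8 regulators of epidermal and cuticle genes, 4 had one (interval 15.7 to 84.3%, against the same 57.2%), led by myrf-1 (39.0), nhr-23 (34.8) and elt-3 (33.0). Of the 3 basement membrane collagen genes, cle-1 had one (41.8), a share of 33.3% (0.840 to 90.6%). Each of these 4 intervals covers the share of all genes. None of these 4 lists held an optimal peak. In the lists of replicates 1 and 2, 8 and 8 of the 11 processing genes had a region, and 25 and 26 of the 35 cuticlin genes. The counts were 6 and 6 for the 8 regulators and 1 and 1 for the 3 basement membrane genes, beside 63.8% and 63.7% of all genes. The cuticlin and regulator shares were thus above that of all genes in both replicates and below it in the pooled list.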

How the data were processed

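ChIP-seq for EOR-1 was done on 2 replicates of 1 group. The antibody label reads eor-1, which does not say whether the tag or the protein itself was bound. The README files deposited beside the lists derive the candidates from the alignments of each replicate, or of both, and 1 further file whose kind they do not state. They derive the optimal list from the 3 candidate lists by the irreproducible discovery rate. The labels name a possible control, and the peak caller is not named in the sources used here. The deposited lists give a signal value and a −log10 q value per region, and read depth is unknown.

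Regions in ce11 were assigned by summit to Ensembl release 115 genes (WBcel235), with mitochondrial regions left out; ce10 lists were not used. A gene's start is its annotated 5′ end, and overlap means 1 bp or more. Shares carry exact Clopper-Pearson 95% intervals (counting error only). No significance test was run. The gene assignment was tested on planted summits. The tools were pandas 2.3.3 and SciPy 1.17.1 under Python 3.11.15, with numpy 2.4.6, and matplotlib 3.10.9 for the figures.

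The members, lists and windows were chosen with earlier results of these data known. Named were col- genes with an optimal peak, the 15 with the highest signal where their start is closest, the 10 highest in the locus and the 10 highest in the promoter window, col-185, 7 of known use, and the 3 highest of each related list. Alternatives were other reaches and windows, stricter ranks, other overlap and closest-gene rules, and each replicate list by itself in place of the pooled list.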

Additional observations from a re-analysis of the deposited data

How the results depend on the processing

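No paired analysis was possible because there is 1 group. Reach and strength set the counts. Shares are of 156 col- genes, against all protein-coding genes. With 2000 bp upstream no col- gene had an optimal peak (0, against 1.45%), and with 10000 bp 2 had one (1.28%, against 3.14%). A pooled region was in the locus of 48 with 2000 bp (30.8%, against 47.3%) and of 102 with 10000 bp (65.4%, against 68.5%). The gap to all genes was thus smaller at the longest reach. Among the first 5000 pooled regions 26 had one in the locus (16.7%, against 24.8%) and 10 had the closest start (6.41%, against 14.8%). In the first 5000 of each replicate, 8 had one in both (5.13%, against 14.6%). Among the first 3000 pooled regions 16 had one (10.3%, against 17%). In a window of 500 bp upstream to 100 bp downstream 16 did (10.3%, against 18.9%). Leaving out a replicate meant taking the list of the other by itself, so its locus and promoter counts repeat those given above and are no further check. This gave 82 to 83 with a region in the locus (52.6 to 53.2%, against 63.7 to 63.8%). It also gave 49 to 51 with the closest start (31.4 to 32.7%, against 46.8 to 47.1%). It gave 32 to 38 in the promoter window (20.5 to 24.4%, against 31.9%), median highest signals of 12.4 to 14.3 (scales differ between lists) and a motif share of 0 in both. Counting every biotype for the closest start left 28 (17.9%, against 36.8%), beside 40 (25.6%, against 42.8%) for protein-coding starts. Counting any base of a region, chosen after the data were seen, gave 73 (46.8%, against 58.2%).

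Depth is unknown, so no precision attaches to a single signal, and 1 optimal peak in 156 genes cannot separate the family from the 2.14% of all genes.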
